A study of Mus musculus with 8 samples.

Results

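Ccl2 (also called MCP-1) and Ccl7 (MCP-3) encode secreted CC chemokines that call monocytes out of the blood. They are 2 of the 6370 genes with a symbol on the array, each measured by 1 probe, and were selected by gene symbol with their response in these muscles already known. The series holds 8 arrays of EDL muscle (extensor digitorum longus, made mainly of fast fibres) from 4 male Swiss Webster mice numbered 183, 197, 438 and 440. In each mouse the EDL of 1 leg was made to contract through its motor nerve for 4 h (stimulated), and the resting EDL of the other leg is its control (contralateral). Neither a genotype nor an age is given in the labels, and no muscle of an animal without a stimulated leg was analysed here, so both muscles of a pair come from an animal that underwent the procedure.

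CC chemokines are small proteins named for a pair of adjacent cysteines. They bind heparan sulfate on vessel walls and matrix and act on G protein-coupled receptors of leukocytes. Ccr2 is the shared receptor of Ccl2 and Ccl7 and carries monocytes from marrow to tissue, while Ccl7 also acts on Ccr1 and Ccr3. In muscle these ligands can come from fibres, endothelial cells, interstitial fibroblasts and resident macrophages, and they are known for the recruitment of monocytes after damage and for transient induction by exercise.

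Intensities are linear and were normalized by the authors. The 8 array medians lay between 0.90 and 0.94, so an intensity of 1 is close to the middle of an array. Between 10367 and 10474 probes had a value on an array. Fast fibre markers were bright, as the labelled tissue calls for, with 8 measured genes summing to between 4920 and 8933 in stimulated and between 7305 and 15167 in contralateral EDL. In whole muscle, more cells of a type and more RNA per cell cannot be told apart.

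Ccl2 was higher in the stimulated muscle of every mouse, but by very unequal amounts. Its intensity was 7.53, 10.8, 3.93 and 179.9 in the stimulated EDL of mice 183, 197, 438 and 440, against 1.90, 2.40, 1.36 and 4.92 in their contralateral EDL. The stimulated muscle of mouse 440 was far above all others, and the groups overlapped, since the contralateral muscle of mouse 440 exceeded the stimulated muscle of mouse 438. Within mice the fold was 3.96, 4.50, 2.89 and 36.6. The fitted change, stimulated over contralateral, was 6.59-fold, or 2.72 ± 0.50 on the log2 scale (SE from limma with mouse as a block, n = 4 mice).

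Ccl7 was also higher in the stimulated muscle of every mouse, and there the groups did not overlap. Its intensity was 15.5, 15.5, 5.91 and 130.2 in the stimulated EDL of mice 183, 197, 438 and 440, against 1.06, 1.91, 0.87 and 4.15 in their contralateral EDL. The lowest stimulated muscle, that of mouse 438, still exceeded the highest contralateral muscle, that of mouse 440. Within mice the fold was 14.6, 8.14, 6.79 and 31.4, and the fitted change was 12.6-fold, or 3.66 ± 0.33 (log2, SE, n = 4 mice). Of the 10245 probes with values on all arrays, 1.56% had all 4 stimulated muscles above all 4 contralateral ones. By size of change Ccl7 ranked 1 and Ccl2 ranked 8 of 10406 tested probes. These changes are what the genes were chosen for and are given as a description, without a test.

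**Figure D1:**
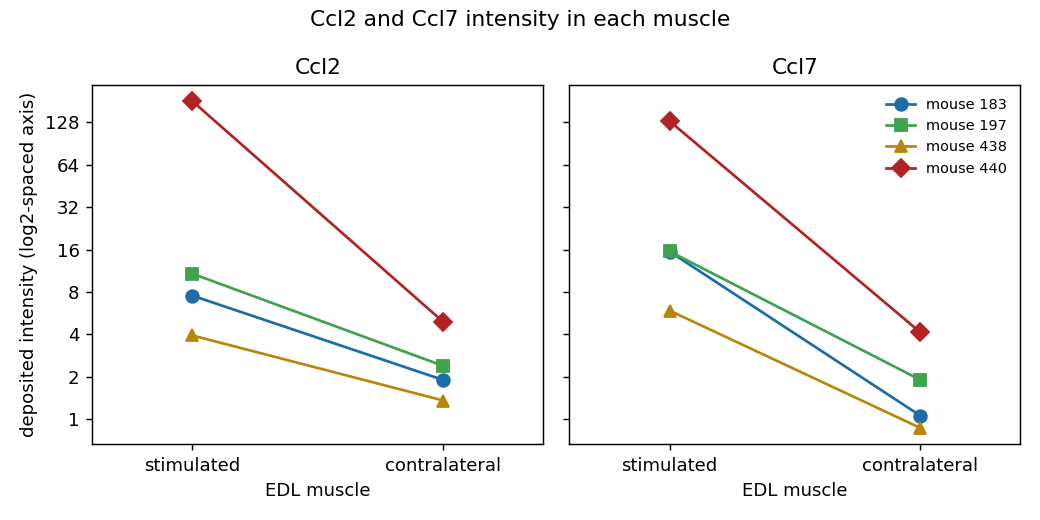
Deposited intensity of Ccl2 and Ccl7 on a log2-spaced axis, with 1 point per EDL muscle and a line joining the stimulated and contralateral muscle of each mouse. All lines fall toward the contralateral side, mouse 440 is highest and mouse 438 lowest on each side of each panel, and the stimulated muscle of mouse 440 reaches 179.9 for Ccl2 and 130.2 for Ccl7.

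The spread between mice was wide for both genes, and wider after stimulation. On the log2 scale Ccl2 averaged 3.95 ± 2.43 in stimulated and 1.23 ± 0.78 in contralateral muscle, and Ccl7 averaged 4.37 ± 1.88 in stimulated and 0.72 ± 1.01 in contralateral muscle (SD, n = 4 each). The change itself had an SD over mice of 1.67 for Ccl2 and 1.00 for Ccl7, against a median of 0.47 over all 10245 complete probes. For Ccl2 99.0% and for Ccl7 92.4% of these probes had a smaller SD. Computed from the mice alone, the SE of the change was 0.84 for Ccl2 and 0.50 for Ccl7, larger than limma's moderated SE, which draws each probe's variance toward that of probes of similar brightness.

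Much of the Ccl2 value came from 1 animal. Without mouse 440 the Ccl2 change was 3.72-fold (log2 1.90) and the Ccl7 change was 9.30-fold (log2 3.22). The change of Ccl7 exceeded that of Ccl2 by 1.88, 0.85 and 1.23 log2 units in mice 183, 197 and 438, and fell short of it by a small margin in mouse 440, at -0.22 (mean 0.94 ± 0.88, SD, n = 4). In absolute intensity, stimulated minus contralateral, mouse 440 gained 175 units of Ccl2 where the other mice gained between 2.57 and 8.39, and 126 units of Ccl7 where the others gained between 5.04 and 14.4.

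The 4 mice had the same order for both genes in both muscles, which was noticed after their values were seen. From low to high it was 438, 183, 197 and 440 in stimulated and in contralateral EDL alike, though Ccl7 in stimulated muscle was nearly equal in mice 183 and 197. Of 6245 genes with values on all arrays, 1136 (18.2%) had some shared order in both muscles, and 40 (0.641%) had this one. Besides Ccl2 and Ccl7 these included Il6, a cytokine that contracting muscle releases, Ccl17, a chemokine for T cells, the pattern recognition protein Ptx3 and the neuropeptide precursor Tac1. These were picked among the 40, which also held genes with little change, such as Cdx2 (log2 change 0.14) and Twist2 (0.09). Of 105 genes in the pathway lists below with values on all arrays, 2 had this order, Il6 and Ccl17. A mouse with a high contralateral level of Ccl2 or Ccl7 thus also had a high stimulated level.

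The arrays of mice 183 and 197 and those of mice 438 and 440 form separate sets by their missing values. A total of 56 probes lacked a value on all 4 arrays of the first set alone and 25 on all 4 of the second set alone. The mean change of Ccl2 was 3.36 in mice 438 and 440 and 2.08 in mice 183 and 197, and that of Ccl7 was 3.87 and 3.44 in the same sets. For both genes mouse 438 had the smallest and mouse 440 the largest change of all 4 mice (1.53 and 5.19 for Ccl2), so their mean describes neither. The difference between the sets, a contrast that played no part in choosing the genes, was 1.29 ± 0.99 for Ccl2 (95% interval -1.001 to 3.57) and 0.42 ± 0.70 for Ccl7 (-1.20 to 2.04). In limma's interaction test neither passed, with an adjusted p of 0.989 for each. No probe passed that test (0%), with 314 of 10245 (3.06%) at an unadjusted p under 0.05. Both intervals include 0 and reach above 2 log2 units.

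Ccl2 and Ccl7 lie next to each other on mouse chromosome 11, and 4 further CC chemokine genes follow. In assembly GRCm38.p6, used here for gene order alone, the order is Ccl2, Ccl7, Ccl11, Ccl12, Ccl8 and Ccl1, with 0 other protein-coding genes starting between any neighbours. All 6 were measured, and along this order the log2 changes were 2.72, 3.66, 2.33, 0.50, 0.90 and -1.01. Of the 4 neighbours 1 rose, 0 fell and 3 did not pass, where 1.34% of all 10406 probes passed in either direction and 1.11% rose (limma, Benjamini-Hochberg adjusted p 0.05).

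The neighbour that rose was Ccl11, an eosinophil attractant acting on Ccr3. Its log2 intensity was 3.28, 3.76, 2.01 and 5.31 in the stimulated EDL of mice 183, 197, 438 and 440, against 0.27, 1.49, 1.45 and 1.83 in their contralateral EDL (log2 change 2.33 ± 0.40, limma adjusted p 0.0255). The groups did not overlap, and 1.56% of complete probes had all stimulated muscles above all contralateral ones. Mouse 438 had the smallest change, at 0.57, and mouse 440 the largest, at 3.47. Without mouse 183 the change was 2.10 and did not pass (adjusted p 0.170), nor did it without mouse 197 (2.35, adjusted p 0.109).

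The remaining neighbours are ligands of Ccr2 or Ccr8. Ccl12, a further mouse ligand of Ccr2, had log2 intensities of 0.65, 0.59, 2.91 and 3.29 in the stimulated EDL of mice 183, 197, 438 and 440, against -0.24, -0.09, 2.66 and 3.10 in their contralateral EDL. It was higher in 4 of 4 mice by small amounts (0.50 ± 0.21, adjusted p 0.296), while mice 438 and 440 were above mice 183 and 197 in both muscles. Ccl8, which acts on Ccr8 in mice, changed by 0.90 ± 0.33 (adjusted p 0.246), with positive values of 1.86, 1.12 and 1.02 in mice 183, 197 and 438 and -0.38 in mouse 440. Without mouse 440, the 1 mouse with a negative value, it passed, at 1.33 (adjusted p 0.0273). It did not pass without mouse 183 (0.59, adjusted p 0.467) or mouse 197 (0.83, adjusted p 0.443). Ccl1, another ligand of Ccr8, was dim and lower in every stimulated muscle than in any contralateral one, at -2.47, -2.62, -2.74 and -2.89 in stimulated and -1.83, -1.87, -2.16 and -0.79 in contralateral EDL of mice 183, 197, 438 and 440 (log2 change -1.01 ± 0.32, adjusted p 0.195). All 4 stimulated muscles lay below all 4 contralateral ones for 1.67% of probes. Probe sequences were not used here, so cross-hybridisation between these related genes was not examined.

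**Figure D2:**
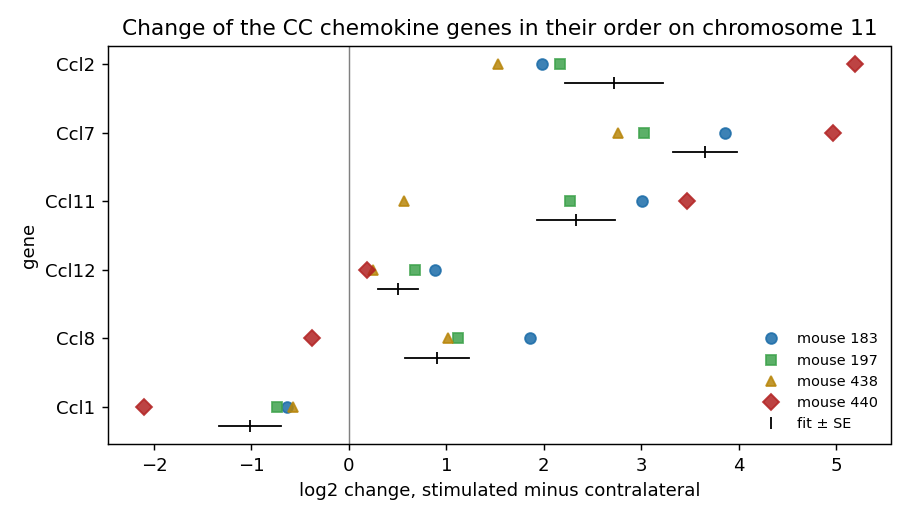
Log2 change, stimulated minus contralateral, of the 6 CC chemokine genes, listed in their order on chromosome 11. Coloured points are the 4 mice and the black bar under them is the fitted change ± SE. Ccl2, Ccl7 and Ccl11 are positive in every mouse, Ccl12 and Ccl8 stand at 0.50 and 0.90, and Ccl1 is negative in every mouse.

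Receptors and decoys of CC chemokines gave no call. Limma passed 0 of the 12 measured, with 4 at an unadjusted p under 0.05, where 15.2% of all probes lay. Their median log2 change was -0.34, where that of all probes was -0.14, and 8 of 12 were negative (7 of 12 after cyclic loess scaling). Several were dim, with mean log2 intensities of -1.86, -2.31 and -2.44 for Ccr2, Ccr3 and Ccr8, while Ackr1 stood at 1.02 and Ackr2 at 0.94. Ccr2 had log2 intensities of -1.51, -2.31, -2.35 and -2.40 in the stimulated EDL of mice 183, 197, 438 and 440, against -1.70, -1.99 and -0.74 in the contralateral EDL of mice 183, 438 and 440, with no value for the contralateral muscle of mouse 197. Its fitted change was -0.61 ± 0.40 (adjusted p 0.472, n = 3 mice). Only the stimulated muscle of mouse 183 stood above the other stimulated ones.

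Ccr1, a receptor of Ccl7 on monocytes and neutrophils, was positive in 4 of 4 mice and highest in mouse 440 (0.17, 0.20, 0.45 and 1.99 in mice 183, 197, 438 and 440), with a fitted change of 0.70 ± 0.34 (adjusted p 0.350). Ccr3, the eosinophil receptor for Ccl7 and Ccl11, was negative in 4 of 4 mice (-0.84 ± 0.30, adjusted p 0.243). Ackr1, which takes up and carries chemokines across venular endothelium, was positive in 4 of 4 mice (0.90 ± 0.32, adjusted p 0.241), at 2.23 in mouse 440 and between 0.16 and 0.63 in the others. Ackr2, a scavenger that destroys inflammatory CC chemokines, had a change of -0.33 ± 0.23 (adjusted p 0.498) and was negative in 4 of 4 mice. Ccr8 (-0.80 ± 0.32), Ccr1l1 (-0.71 ± 0.30) and Ccr6 (-0.62 ± 0.38, n = 3 mice) did not pass. Each was at the intensity floor described below on at least 1 array, as were 5 of the 12 receptors and decoys in all. Ccr6 was at it in both muscles of mouse 440. With the floor at the 20th percentile the changes of Ccr3, Ccr8, Ccr1l1 and Ccr6 were -0.53, -0.26, -0.48 and -0.08.

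Among the other CC chemokines 1 of 12 rose, 0 fell and 11 did not pass, with a median log2 change of 0.05. Of all probes 1.11% rose and 1.34% passed in either direction. The member that rose was Ccl24, a further ligand of Ccr3 (1.53 ± 0.29, adjusted p 0.0358), which did not pass after quantile normalization (adjusted p 0.0604) or without mouse 183, 197 or 440 (adjusted p 0.209, 0.140 and 0.0558). Ccl9, a ligand of Ccr1 in mice, was positive in 4 of 4 mice (1.04 ± 0.31, adjusted p 0.166), as was Ccl17 (1.09 ± 0.39, adjusted p 0.243), while the epithelial chemokine Ccl28 was negative in 4 of 4 (-0.74 ± 0.28, adjusted p 0.272). Ccl28 was at the intensity floor in the stimulated EDL of mice 183 and 440. Its change was -0.03 with the floor at the 20th percentile and -0.40 after quantile normalization. Among 13 CXC, CX3C and XC chemokines 1 rose, Cxcl14 (1.72 ± 0.30, adjusted p 0.0258), 0 fell and 12 did not pass, and the median was 0.30. The neutrophil attractants Cxcl1 (2.59 ± 0.53, adjusted p 0.0549) and Cxcl5 (2.62 ± 0.79, adjusted p 0.176) had changes close in size to that of Ccl2 but did not pass. Like Ccl2, both were largest in mouse 440, at 4.72 for Cxcl1 and 6.06 for Cxcl5. Mouse 438 had 0.44 for Cxcl1 and -0.37 for Cxcl5, and without it both passed, Cxcl1 at 3.30 (adjusted p 0.0115) and Cxcl5 at 3.61 (adjusted p 0.0381). Cxcl5 was at the intensity floor in the stimulated EDL of mouse 438 and the contralateral EDL of mouse 183. Its changes in these mice thus depend on the floor. Without mouse 440 Cxcl1 was at 1.88 and passed (adjusted p 0.0491), and Cxcl5 was at 1.47 and did not. Neither Cxcl1 nor Cxcl5 passed without mouse 183 (adjusted p 0.220 and 0.325) or mouse 197 (adjusted p 0.210 and 0.374). The interferon-induced Cxcl10 stood at 0.87 ± 0.40 (adjusted p 0.337), again with mouse 440 highest, at 2.52.

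The genes whose mouse-by-mouse changes were most like those of Ccl2 were Hmox1, Il6, Timp1, Tac1 and Cxcl1. Likeness was measured as the root mean square difference between the log2 changes of the 4 mice, among 6244 genes. It was 0.40 log2 units for Hmox1, the inducible heme oxygenase, 0.44 for Il6, 0.47 for Timp1, an inhibitor of metalloproteinases, 0.61 for Tac1, the precursor of substance P, and 0.72 for Cxcl1, against a median of 3.28 over all genes compared. Each had its largest change in mouse 440, between 4.68 and 5.51, and its smallest in mouse 438, between 0.42 and 1.28, where Ccl2 had 5.19 and 1.53. Il6 also resembled Ccl2 in level between mice, at 0.85, 3.96, -0.41 and 8.09 log2 units in the stimulated EDL of mice 183, 197, 438 and 440 and -1.18, 1.23, -1.26 and 2.93 in their contralateral EDL. Hmox1 did not, since its contralateral levels lay close together, between 2.46 and 2.77.

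Ccl7 had no equally close match, but its change was the largest of all tested probes, so every other gene lay below it in mean change. The measure counts size of change, so a value far under either median is also what any strongly raised gene would give. The nearest genes were Rcan1, the calcineurin inhibitor, at 0.71 log2 units, the small GTPase Gem at 0.84, Timp1 at 1.08, the secreted protease Adamts1 at 1.20 and Ccl2 at 1.21, against a median of 3.94. Seen from Ccl2, Ccl7 ranked 33 in likeness. Gem and Adamts1 differed less between mice than Ccl7, with changes from 2.71 to 3.90 for Gem and from 1.96 to 3.17 for Adamts1. All of these genes were found by their likeness over 4 pairs of muscles, so their changes are a description, over points that share animals and arrays.

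**Figure D3:**
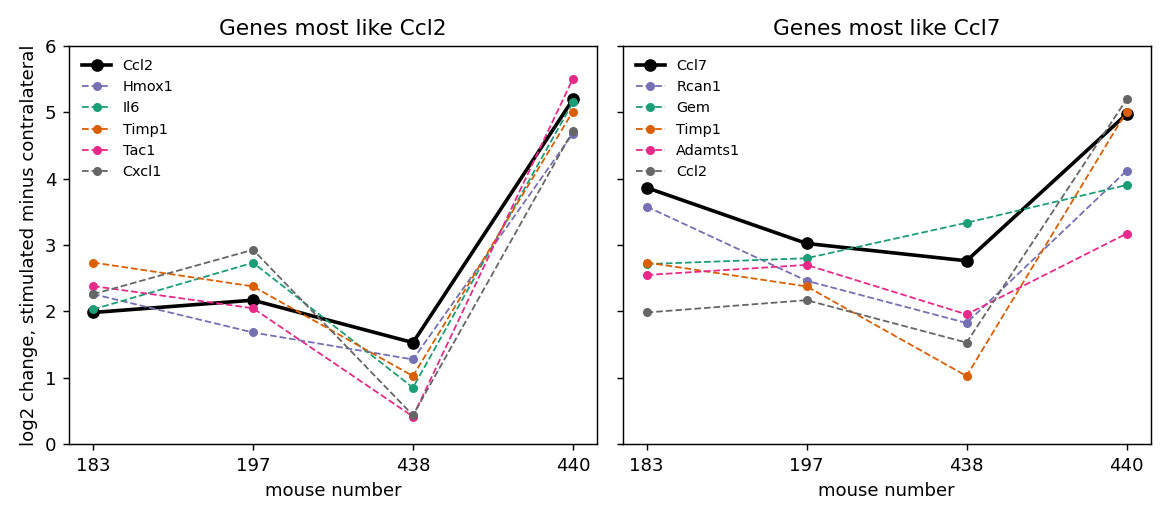
Log2 change, stimulated minus contralateral, in each of the 4 mice for Ccl2 (left, black) and Ccl7 (right, black) and for the 5 genes nearest to each by root mean square difference (dashed). The lines only join the values of a gene, since the mice have no order. In the left panel every gene peaks in mouse 440 and is lowest in mouse 438, while in the right panel Gem is lowest in mouse 183.

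Cytokines and receptors that can induce these chemokines were mostly positive, and 1 of 20 passed, where 1.34% of all probes passed. It was Myd88, the adaptor of Toll-like and interleukin 1 receptors (1.41 ± 0.28, adjusted p 0.0445), which rose, while 0 fell and 19 did not pass. The Myd88 call was lost with quantile normalization (adjusted p 0.0677), without a floor (adjusted p 0.0510), without the dimmest probes (adjusted p 0.0517) and without any 1 mouse (lowest adjusted p 0.0579). The list median was 0.51 and 14 of 20 were positive. Il6 (2.69 ± 0.54, adjusted p 0.0507) did not pass, nor did the growth factor Pdgfb (0.85 ± 0.23, adjusted p 0.135) or the receptor Il1r1 (1.00 ± 0.27, adjusted p 0.138). Without mouse 440 the Il6 change was 1.87 and passed (adjusted p 0.0194), and without mouse 438 it was 3.31 and passed (adjusted p 0.0205). Without mouse 183 or mouse 197 it did not pass (adjusted p 0.172 and 0.178).

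Genes of the NF-kB system, the best known inducer of Ccl2 transcription, gave 0 calls among 15 measured. An unadjusted p under 0.05 was found for 4 of them, beside 15.2% of all probes. Their median was 0.27 and 12 of 15 were positive. The kinase Ikbke had a change of 1.19 ± 0.30 (adjusted p 0.111), the adaptor Traf1 of 0.84 ± 0.29 (adjusted p 0.230) and the inhibitor Nfkbib of 1.78 ± 0.51 (adjusted p 0.162). Nfkbib differed between mice, at 2.85 and 3.61 in mice 183 and 438 and 0.27 and 0.38 in mice 197 and 440, which is not the pattern of Ccl2 or Ccl7.

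Transcription factors of the AP-1, C/EBP, Sp and STAT groups, several of which have sites in the Ccl2 promoter, included 3 of 13 that rose, with 0 that fell and 10 that did not pass. Fos (2.43 ± 0.25, adjusted p 0.0037), Junb (2.09 ± 0.39, adjusted p 0.0344) and Atf3 (2.35 ± 0.43, adjusted p 0.0344) rose. Without mouse 183 none of these passed (adjusted p 0.0534, 0.159 and 0.202). Without mouse 197 Fos passed (adjusted p 0.0226), but Junb and Atf3 did not (0.0995 and 0.0503). Atf3 also did not pass without the dimmest probes (adjusted p 0.0514). Jund (0.98 ± 0.23, adjusted p 0.0865), Irf1 (0.70 ± 0.24) and Fosl1 (1.45 ± 0.55) were positive and did not pass. Atf3 was largest in mouse 440, at 4.22, whereas Junb was largest in mouse 183, at 3.46. The list median was 0.70, and of all probes 1.11% rose.

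Genes that regulate message decay or shut off signalling had the highest median of the 9 pathway lists, 1.01. Among 9 measured, 3 rose, 1 fell and 5 fell short of the threshold, where 1.11% of all probes rose and 0.231% fell. The cytokine signalling inhibitors Socs3 (2.41 ± 0.33, adjusted p 0.0117) and Socs1 (1.89 ± 0.31, adjusted p 0.0267, n = 3 mice) rose, as did Zfp36, which binds AU-rich elements and speeds the decay of cytokine messages (1.35 ± 0.21, adjusted p 0.0142). Socs1 did not pass after quantile normalization (adjusted p 0.0772). Zfp36 was 4.49, 4.71, 3.97 and 5.87 log2 units in the stimulated EDL of mice 183, 197, 438 and 440, against 3.38, 3.32, 3.03 and 3.90 in their contralateral EDL. All stimulated values of Zfp36 lay above all contralateral ones, as for 1.56% of complete probes. The Zfp36 relative Zfp36l1 (1.22 ± 0.25, adjusted p 0.0524), the phosphatase Dusp1 (1.01 ± 0.26, adjusted p 0.119) and Hnrnpd (0.60 ± 0.18, adjusted p 0.165) had positive changes in all 4 mice without passing. Without mouse 440 Zfp36l1 passed, at 0.89 (adjusted p 0.0353), and without mouse 183 it did not (1.30, adjusted p 0.180). Tsc22d3, a glucocorticoid-induced suppressor of inflammation, fell by 0.84 log2 units (SE 0.15, adjusted p 0.0303), by 0.62 after cyclic loess scaling and by 0.61 after quantile normalization, where it no longer passed (adjusted p 0.0505 and 0.0604).

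Matrix metalloproteinases can trim the first residues of such chemokines, as is known for the human proteins. Of 13 proteases and inhibitors measured 2 rose, Mmp3 (2.35 ± 0.36, adjusted p 0.0156) and Timp1 (2.79 ± 0.51, adjusted p 0.0323), 0 fell and 11 did not pass. Of all probes 1.11% rose. The membrane protease Mmp14 (0.84 ± 0.21, adjusted p 0.113), Mmp12 (0.92 ± 0.37, adjusted p 0.290) and the urokinase gene Plau (-0.28 ± 0.26, adjusted p 0.609) did not pass. The list median was -0.03, and 0.22 and 0.23 after quantile normalization and cyclic loess, so its sign turns with the scaling.

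**Figure D4:**
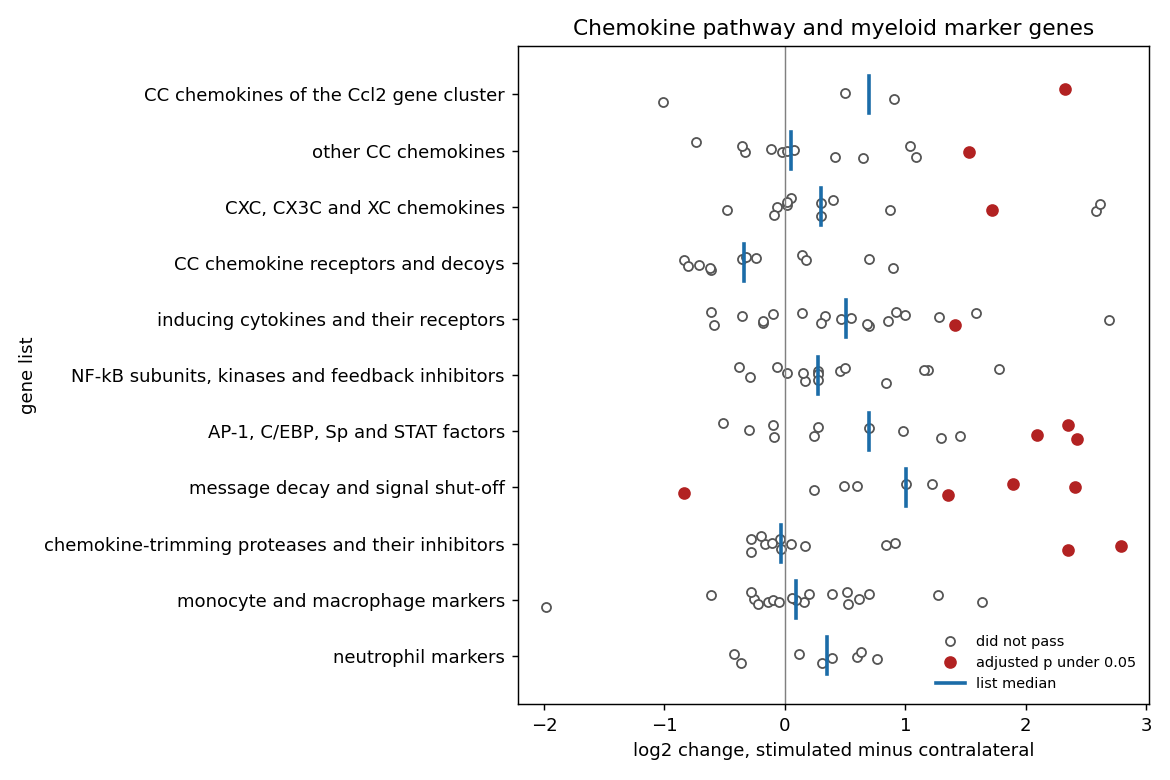
Log2 change, stimulated minus contralateral, of every measured gene in 9 chemokine pathway lists and 2 myeloid marker lists, with genes past an adjusted p of 0.05 in red and the median of each list as a blue bar. Receptors and decoys have a median of -0.34 and no red point, and the message decay and shut-off list has the highest median, at 1.01.

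In all, 13 of the 111 measured genes in these lists passed, 12 higher and 1 lower. Of all probes 1.34% passed, 1.11% higher and 0.231% lower. An unadjusted p under 0.05 was found for 48 of the 111 genes, beside 1584 (15.2%) of all probes. The lists were assembled with earlier results of these data known. The count depended on which mouse was left out, with 0 called without mouse 183, 2 without mouse 197 and 13 without mouse 438 or mouse 440. Leaving out a mouse also leaves fewer pairs, and the cause of the lower counts was not tested. The members of the count differed, since Ccl24, Junb and Myd88 did not pass without mouse 440 and Cxcl14, Myd88 and Tsc22d3 did not pass without mouse 438, while Cxcl1 and Il6 passed in both cases. Socs1 was not tested without mouse 183, 197 or 440, for lack of 3 complete pairs. The count was 0 without mouse as a block.

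Monocyte and macrophage markers gave no call. Of 19 measured markers 0 passed in limma's test, with 6 at an unadjusted p under 0.05, where 15.2% of all probes lay. The median change was 0.10, with 11 positive and 8 negative. Their summed intensity ranged from 44.2 to 291 in stimulated muscle (median 77.6) and from 34.6 to 142 in contralateral muscle (median 62.2), over 18 genes with complete values. Averaged over the 19 markers, mice 183, 197, 438 and 440 changed by -0.07, 0.15, 0.31 and 0.18. The 4 markers with the smallest p were positive in 4 of 4 mice. They were the scavenger receptor Msr1 (1.27 ± 0.26, adjusted p 0.0527), the endotoxin co-receptor Cd14 (1.64 ± 0.40, adjusted p 0.102) and the Fc receptor genes Fcer1g (0.70 ± 0.23) and Fcgr3 (0.61 ± 0.21). Cd14 was at 3.57 in mouse 440 and between 0.93 and 1.11 in the others, and without mouse 440 it passed, at 1.00 (adjusted p 0.0259). It did not pass without mouse 183 or mouse 197 (adjusted p 0.234 and 0.181). No marker was at the floor on every array, and 4 were at it on at least 1 array.

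Neutrophil markers gave 0 calls among 8, and a median of 0.35. An unadjusted p under 0.05 was found for 1 of them, beside 15.2% of all probes. Their summed intensity ranged from 13.9 to 432 in stimulated muscle (median 61.8) and from 11.9 to 83.3 in contralateral muscle (median 55.6). Averaged over the 8 markers, mice 183, 197, 438 and 440 changed by -0.13, 0.13, -0.04 and 1.06. The mean was highest in mouse 440, which also had the highest Ccl2 and Ccl7. This was not particular to neutrophil markers, since mouse 440 also had the largest mean change of endothelial (0.48) and mast cell (0.38) markers. Other lists peaked in other mice, such as monocyte and macrophage markers in mouse 438 (0.31) and fibroblast markers in mouse 197 (0.14). S100a8, an abundant neutrophil protein, was 2.41 higher in the stimulated muscle of mouse 440 and between 0.04 and 0.34 higher in the others (0.77 ± 0.35, adjusted p 0.334). Cxcr2, the receptor of Cxcl1 (0.60 ± 0.24), Ltf (0.63 ± 0.34) and Csf3r (-0.43 ± 0.29) did not pass. What part, if any, myeloid cells have in the chemokine values was not tested.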

How the data were processed

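Total RNA of 8 EDL muscles was turned into biotin-tagged cRNA for 1-colour CodeLink arrays, per the labels' protocols. The deposited table gives 1 normalized linear intensity per probe and array, as made by the authors; background correction and scaling steps are not given in the sources used here. Of 10500 probes 6373 have 1 gene symbol, 0 several and 4127 none, and all symbols were matched by Entrez ID to GRCm38.p6. A floor of 0.0937, the 5th percentile of all values above 0, replaced lower intensities before taking log2. Values below it numbered 1387, 708, 358 and 277 on the stimulated arrays of mice 183, 197, 438 and 440. On their contralateral arrays they numbered 619, 579, 238 and 80. Neither Ccl2 nor Ccl7 was at the floor on any array.

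Probes with at least 3 complete pairs (10406, covering 6315 genes) were fitted with limma 3.58.1 (R 4.3.3), using a block for each mouse and a variance trend, and p-values (two-sided) were adjusted over all of them by Benjamini and Hochberg. The titles pair both muscles of an animal, and deviations from group means correlated at 0.52 to 0.64 within mice, above the highest value with another mouse (0.18 to 0.45). Array number limits the precision, with a median SE of 0.26. In 10 simulated draws of 10245 probes the fit recovered 17.2% of 2-fold and 73.7% of 4-fold changes of this comparison.

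The genes and lists were chosen with earlier results of these data known. Named are all list genes that passed, up to 3 others per pathway list and 4 per myeloid marker list by smallest p, all neighbours of Ccl2, set receptors, and the 5 nearest genes by likeness; Ptx3, Sdc4 and the single examples with their order of mice were picked after their values were seen. Alternatives were other floors, quantile and cyclic loess scaling, no block, no moderation, no dim probes, and leaving out mice.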

Additional observations from a re-analysis of the deposited data

Results flagged for a closer look

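Within groups of 4 muscles, 1 muscle stood apart from the other 3 for 7 of 116 groups checked among the named genes, by Dixon's ratio, which chance exceeds in about 1 of 20 groups. Neither Ccl2 nor Ccl7 was among them. In stimulated muscle these were the log2 intensities of Ackr1 in mouse 440 (2.96, next 1.14), Nfkbib in mouse 440 (4.10, next 3.11), Ccr2 in mouse 183 (-1.51, next -2.31), Dusp1 in mouse 438 (2.21, next 3.51) and Gem in mouse 438 (1.11, next 2.76). In contralateral muscle they were Mmp3 in mouse 440 (0.10, next -1.92) and Jund in mouse 438 (5.60, next 5.25).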

How the results depend on the processing

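The log2 changes of Ccl2 and Ccl7 stayed positive under every alternative, from 2.08 to 3.36 and from 3.44 to 3.87 with other floors, scalings, filters and pairs of mice, and from 1.90 to 3.12 and from 3.22 to 3.95 without 1 mouse. Cyclic loess moved the median change of all probes to -0.01 from -0.14 and left Ccl2 at 2.77 and Ccl7 at 3.70. The number of probes called, 139, was less stable: 0 with the floor at the 20th percentile (1296 at an unadjusted p under 0.05), 1 without the replicate block (477), 0 without moderation (1208), 0 within mice 183 and 197 (858), 69 within mice 438 and 440 (1099), and between 7 and 176 without 1 mouse. The 13 pathway genes called became 0, 0, 0, 0 and 3 under the same 5 settings and between 0 and 13 without 1 mouse. The causes were not tested. Of the 58 other named genes 17 passed and 0 changed sign under any alternative. The interactions kept their direction and did not pass with other floors, scalings or without dim probes. With 4 pairs and wide spread between mice, modest changes can be missed.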

Other observations

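Markers of other cells that can hold or respond to these chemokines were read in the same fit. Of 6 satellite cell markers 1 rose, the cell surface proteoglycan Sdc4 (log2 change 1.11 ± 0.17, limma adjusted p 0.0164), and 5 did not pass. Limma called 0 of 8 endothelial, 0 of 5 fibroblast, 0 of 6 smooth muscle and pericyte, 0 of 6 T cell and 0 of 5 mast cell markers, with 1, 1, 0, 1 and 1 at an unadjusted p under 0.05. The Schwann cell and adipocyte lists had 1 measured gene each, Pmp22 and Retn, and neither passed. Median changes were -0.08 for endothelial, -0.06 for fibroblast, 0.09 for smooth muscle and pericyte, -0.08 for T cell and 0.07 for mast cell markers. After quantile normalization and cyclic loess the T cell median was 0.14 and 0.23 and the fibroblast median 0.02 and 0.08, so their sign turns with the scaling. Fast fibre markers had a median of -0.49 (-0.10 and -0.24 after quantile normalization and cyclic loess) with 0 of 8 called and 6 at an unadjusted p under 0.05, and slow fibre markers one of 0.85 with 0 of 4 called and 3 at an unadjusted p under 0.05. Of all probes 15.2% had an unadjusted p under 0.05.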
